A study of Mus musculus with 2 samples.

Results

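Across the 43 Wnt pathway genes, forebrain RNA at embryonic day 11.5 held most intracellular genes of the pathway in both libraries. Ctnnb1 (beta-catenin) led at 388 ± 2.02 TPM (transcripts per 1000000, a level scaled by transcript length, with SD, n = 2). Of the 8 Wnt ligands, 2 were detected in both libraries, 2 in one and 4 in neither. Over all protein-coding genes 30.4% were detected in both, so the ligand count is not read as a trait of the ligands. The 43 genes are the rows of the gene tables whose identifier maps to a listed symbol in the GENCODE mouse annotation. All 43 were found once each, among 43346 gene rows, and all 43 are protein-coding. They were read by role, as 8 ligands, 10 receptors and co-receptors, 10 members of the cytoplasmic relay, 7 nuclear effectors, 4 secreted inhibitors, 2 R-spondin agonists and 2 genes of ligand secretion.

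Wnt proteins are secreted, lipid-modified signals that bind Frizzled receptors together with the co-receptors Lrp5 and Lrp6. In the canonical branch this stops a cytoplasmic complex of Apc, Axin, casein kinase 1 and Gsk3 from marking beta-catenin for destruction, and beta-catenin then acts in the nucleus with the Tcf and Lef factors. In the embryonic forebrain, Wnt ligands made at the dorsal midline pattern the hippocampus and cortex and keep progenitors dividing, and secreted inhibitors limit their range.

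The study made 2 replicate libraries from forebrain of the mouse strain B6NCrl, and there is no second condition. Replicate 1 pooled the forebrains of 109 embryos and replicate 2 those of 88 embryos, of both sexes, all at embryonic day 11.5. Each library began with an amount of long RNA equal to that of 1 cell and was amplified by SmartSeq, a method that copies RNA into full-length complementary DNA, and spike-in RNAs were added. Differences between the libraries are therefore differences between 2 amplified samples of pooled tissue, with no test, and are given as replicate 1 minus replicate 2.

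The libraries held 27395002 and 27977544 expected counts on gene rows. The 43 genes took 0.386% of these in replicate 1 (exact 95% binomial interval 0.384% to 0.389%) and 0.363% in replicate 2 (0.361% to 0.365%). These intervals, and the limit of 3 counts that a count of 0 allows (0.110 and 0.107 counts per 1000000, CPM), cover counting error only, because amplified reads are not independent molecules. Of 8 forebrain markers, 7 had 1 TPM or more in both libraries, and Six3 had 2.07 TPM in replicate 1 and 0 in replicate 2. All 8 midbrain and hindbrain markers had 0 counts in both. Of 8 diencephalon and hypothalamus markers, which are also regions of the forebrain, 1 (Lhx9) had 1 TPM or more in both libraries. The other 7 had less in both, and 4 of them had 0 counts in both. Whether midbrain or hindbrain tissue was absent was therefore not tested by these markers. Markers of other cells were present. The summed TPM of 9 mesenchyme and meninges markers was 447 in replicate 1 and 352 in replicate 2. Lum made up 169 and 62.7 of this and Dcn 54.8 and 0.03, and each of the others was higher in replicate 2. For 9 endothelial markers the sum was 266 and 196. For 7 surface ectoderm markers it was 89.0 and 15.5, of which Krt8 made up 73.9 and 2.59 and Cdh1 15.2 and 10.98. For 5 blood markers it was 19755 and 24172. The part of these other cells in the levels below was not tested. In such tissue fewer cells of a type and less RNA per cell cannot be told apart.

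At 1 TPM or more, 27 of the 43 genes (62.8%) were detected in both libraries, against 30.4% of 21474 protein-coding genes and 16.6% of all gene rows. The 43 were chosen with earlier results of these data known, so this share does not describe the pathway as a whole. Of 72 other pathway genes in matching roles, 34.7% were detected in both. A further 5 were detected in one library, of which 2 (Wnt3a and Fzd8) in replicate 1 and 3 (Wnt5a, Ror2 and Axin1) in replicate 2. The other 11 were detected in neither, and 8 of these had 0 counts in both: Wnt1, Wnt2b, Wnt7a, Fzd5, Fzd9, Lrp5, Dkk1 and Porcn. Among these members, detection differed by role. In both libraries 9 of 10 cytoplasmic relay genes and 6 of 7 nuclear effectors were detected, against 5 of 10 receptors and co-receptors and 2 of 8 ligands.

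**Figure D1:**
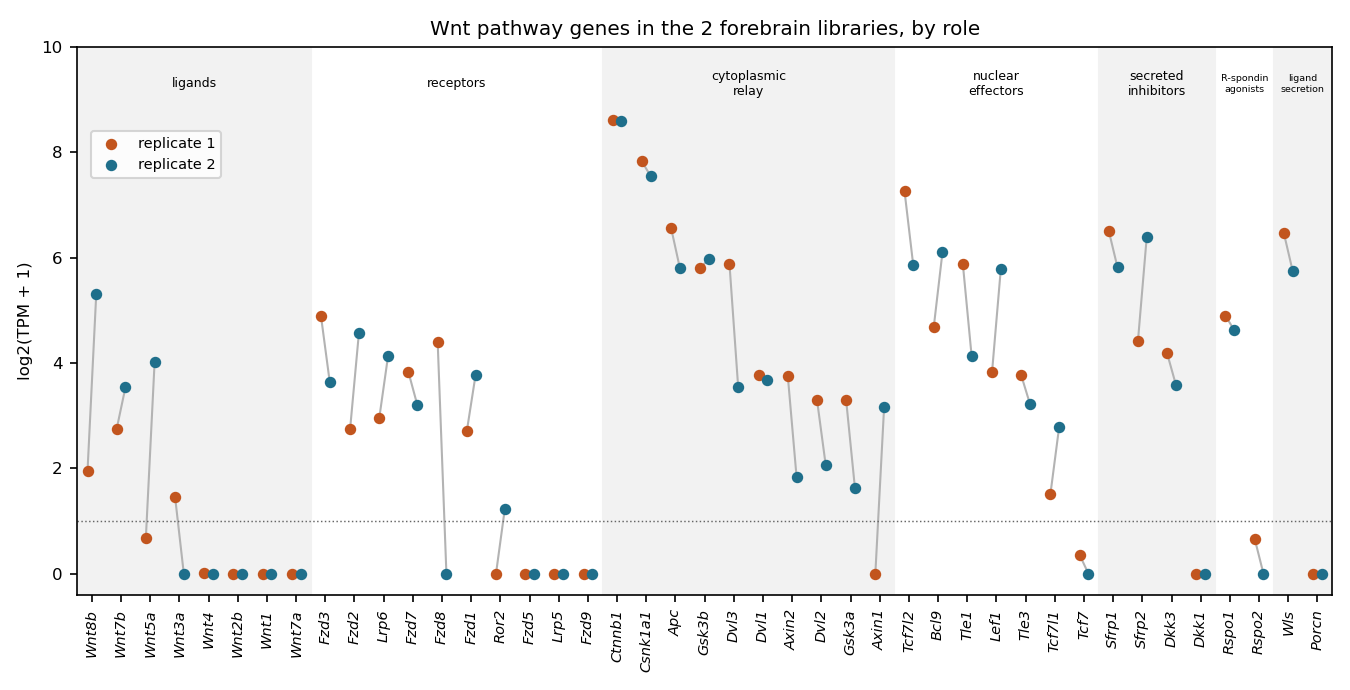
Level of each of the 43 genes in log2(TPM + 1), with replicate 1 left of replicate 2 and genes ordered within each role by mean TPM; the dotted line marks a TPM of 1. The cytoplasmic relay holds the highest gene (Ctnnb1, 388 TPM on average) and the ligands hold 3 genes with 0 counts in both libraries.

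Of the 8 ligands, 4 reached 1 TPM in a library, and the highest value was 38.7 TPM. Wnt8b, a ligand of the dorsal forebrain midline, had 2.85 TPM in replicate 1 and 38.7 TPM in replicate 2, from 209 and 2814 counts. It was the highest ligand on average, and 13.6-fold higher in replicate 2. Wnt7b, a ligand of the developing cortex that also acts on brain blood vessels, had 5.72 and 10.6 TPM and was the steadiest of the 4 (8.16 ± 3.45 TPM, mean ± SD, n = 2).

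Wnt5a, which acts mostly outside the beta-catenin branch, had 0.60 TPM in replicate 1 and 15.2 TPM in replicate 2, so that it passed the detection level in replicate 2 alone. Its counts, 93 and 1264, lay in the same direction. Wnt3a, the ligand of the cortical hem that is needed for the hippocampus in mice, had 104 counts and 1.75 TPM in replicate 1 and 0 counts in replicate 2. With 0 set at the limit of 3 counts, it was at least 35.4-fold higher in replicate 1 in CPM. Wnt4 had 1 count in replicate 1 and 0 in replicate 2. The ranges of each ligand over the 2 libraries overlapped that of the next in order of mean TPM, so the data do not order Wnt8b, Wnt7b and Wnt5a.

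The summed TPM of the ligands was 10.9 in replicate 1 and 64.5 in replicate 2, the widest relative gap of any role, and Wnt8b made up 26.1% and 60.0% of it. Among markers of the hem and dorsal midline, where several of these ligands are made, Msx1 had 50.5 and 55.1 TPM and Msx2 had 33.2 and 34.7 TPM. The other 5 were uneven or low: Bmp4 had 28.9 and 0.05 TPM, Bmp7 had 0 and 33.2 TPM, Lmx1a had 0.48 and 0 TPM, Ttr had 0.08 and 0.04 TPM, and Gdf7 had 0 counts in both. Of 5 neural progenitor markers, 4 were higher in replicate 2, as Wnt8b and Wnt5a were, and their sum (1248 TPM in replicate 1 and 2466 TPM in replicate 2) was mostly Vim (741 and 1290 TPM) and Fabp7 (438 and 1010 TPM). Sox2 was the exception, with 21.8 and 18.95 TPM. The summed TPM of the forebrain markers was 437 in replicate 1 and 317 in replicate 2, and that of 5 neuron markers was 793 and 687. The part of these markers in the ligand levels was not tested.

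Of 7 Frizzled receptors among the members, 5 had 1 TPM or more in a library, all below Ctnnb1, Csnk1a1, Apc and Gsk3b in both libraries. Fzd3, a receptor used in axon guidance, had 28.8 TPM in replicate 1 and 11.5 TPM in replicate 2. Fzd2 had 5.72 and 22.6 TPM, and Fzd1 had 5.53 and 12.7 TPM, both higher in replicate 2. Fzd7 had 13.2 and 8.24 TPM (10.7 ± 3.47, SD, n = 2) and was the nearest to equal of the 5.

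Fzd8, a receptor of the anterior neural tissue, had 1465 counts and 20.2 TPM in replicate 1 and 0 counts in replicate 2, so that in CPM it was at least 499-fold higher in replicate 1. The deposited level counts it on a transcript of 3346 bases. Ror2, a receptor for Wnt5a, had the opposite pattern at a low level, with 0 counts in replicate 1 and 107 counts (1.33 TPM) in replicate 2, which in CPM was at least 34.9-fold higher in replicate 2. From Fzd3 down to Fzd1, the ranges of neighbours overlapped, and only the step from Fzd1 down to Ror2 exceeded the spread between the libraries. The summed TPM of the role was nevertheless similar, at 80.1 in replicate 1 and 72.8 in replicate 2.

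Lrp6, the co-receptor that passes the signal to the relay, had 6.77 TPM in replicate 1 and 16.5 TPM in replicate 2, while its paralogue Lrp5 had 0 counts in both libraries. The counts of Lrp6 ran the other way, with 1405 in replicate 1 and 973 in replicate 2. In replicate 1 the authors' tables assigned 100% of its TPM to the coding transcript Lrp6-201 (9368 bases, 23 exons), and in replicate 2 they assigned 100% to Lrp6-202 (2756 bases, 11 exons), which is annotated as a retained intron. Lrp6-202 begins with 402 bases of an Lrp6-201 intron and then follows Lrp6-201 exons. The boundary is shown to place the difference, with the last intron bases in capitals and the first exon bases in lower case, at chr6:134470862-134470921 on the minus strand (GRCm38).
Lrp6-202 boundary: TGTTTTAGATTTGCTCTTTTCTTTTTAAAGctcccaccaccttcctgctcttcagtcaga

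**Figure D2:**
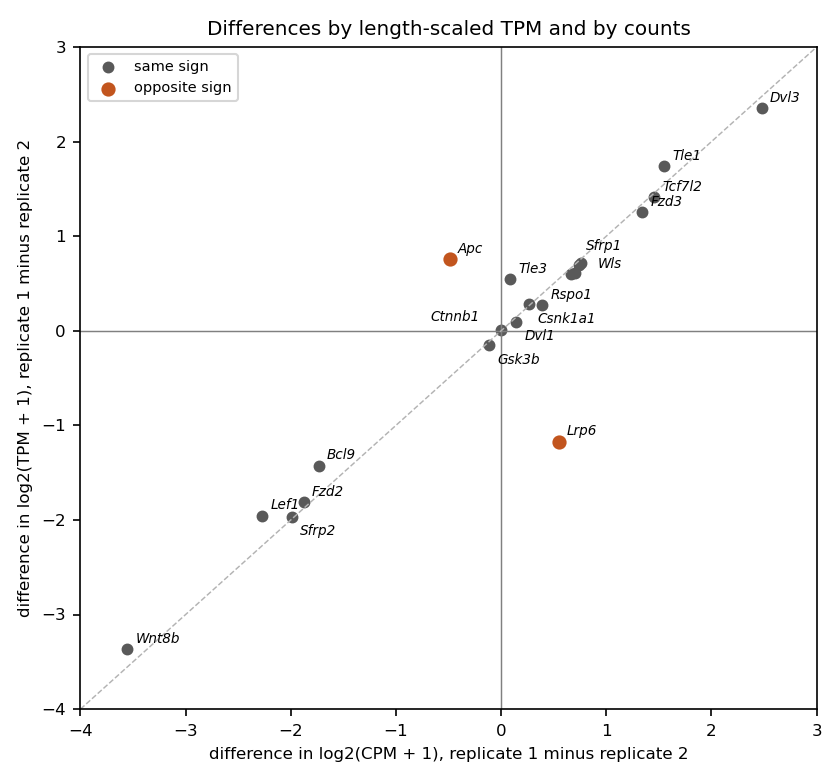
Difference between the libraries (replicate 1 minus replicate 2) in log2(CPM + 1) on the x axis and in log2(TPM + 1) on the y axis, for the 21 Wnt pathway genes that averaged 10 TPM or more and had counts in both libraries; the dashed line marks equality and the points without a name are Fzd7 and Dkk3. Lrp6 and Apc have opposite signs on the 2 scales, and the other 19 do not.

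The same happened to Apc and to no other of the 21 members that averaged 10 TPM or more and had counts in both libraries. Over all genes of that kind, 7.32% of 6761 had TPM and CPM differences of opposite sign, and 16.9% had an effective length over 1.5 times apart, which Lrp6 and Apc also had. Apc, the scaffold that holds beta-catenin in the destruction complex, had 93.6 TPM in replicate 1 and 54.9 TPM in replicate 2, but 6366 and 9133 counts. Its effective length, weighted by the transcripts assigned, was 3039 bases in replicate 1 and 7503 bases in replicate 2. For these 2 genes the direction of the difference therefore depends on the unit.

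The cytoplasmic relay was the most abundant role, with a summed TPM of 865 in replicate 1 and 727 in replicate 2, and it held the most even genes. Ctnnb1, which encodes beta-catenin (chr9:120929216-120960507, plus strand), had 389.9 TPM in replicate 1 and 387 TPM in replicate 2 (388 ± 2.02, SD, n = 2), from 28407 and 28947 counts. It ranked 409th of all gene rows by mean TPM and was the highest of the 43 genes. Csnk1a1, the casein kinase that places the priming phosphate on beta-catenin, had 226 and 186 TPM, and Gsk3b, the kinase that completes the mark, had 55.2 and 61.5 TPM. For these 3 genes the log2 differences were 0.01, 0.28 and -0.15.

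The ranges of Ctnnb1, Csnk1a1 and then Apc did not overlap, so this order held in both libraries, while each gene below Apc overlapped the next. Gsk3a, the paralogue of Gsk3b, had 8.77 TPM in replicate 1 and 2.09 TPM in replicate 2, below Gsk3b in both. Of the Dishevelled proteins, which relay the signal from Frizzled, Dvl3 had 58.1 and 10.6 TPM, Dvl2 had 8.85 and 3.16 TPM, and Dvl1 had 12.6 and 11.7 TPM. Dvl3 was 5.49-fold higher in replicate 1, and Dvl1 differed by 0.10 on the log2 scale.

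Axin1 and Axin2, scaffolds of the destruction complex, did not follow each other. Axin1, the constitutive scaffold, had 0 counts in replicate 1 and 647 counts (7.93 TPM) in replicate 2, which in CPM was at least 211-fold higher in replicate 2. Axin2, which is also a target of the pathway, had 12.5 TPM in replicate 1 and 2.57 TPM in replicate 2. Of this TPM, 92.8% in replicate 1 and 62.2% in replicate 2 was assigned to Axin2-203, which is annotated as not coding. Acadvl, a gene on the opposite strand that overlaps Dvl2, had 81.4 counts in replicate 1 and 1438 in replicate 2. Use of strand in counting is not given in the sources used here, so reads of Dvl2 and Acadvl may not be separable.

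The nuclear effectors summed to 263 TPM in replicate 1 and 209 TPM in replicate 2. Among them, Tcf7l2 and Lef1 had the highest levels of the Tcf and Lef factors, the DNA-binding partners of beta-catenin, and their differences lay in opposite directions. Tcf7l2 (chr19:55741820-55933654, plus strand) had 152.7 TPM in replicate 1 and 56.7 TPM in replicate 2, from 7086 and 2617 counts. Lef1 (chr3:131110471-131224356, plus strand) had 13.2 TPM in replicate 1 and 54.1 TPM in replicate 2, from 651 and 3319 counts. Tcf7l1, which mainly represses targets, had 1.85 and 5.90 TPM, and Tcf7 had 15 counts in replicate 1 and 0 in replicate 2, which in CPM was at least 5.11-fold higher in replicate 1 but under 1 TPM.

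Of the cofactors, Tle1 had 57.5 TPM in replicate 1 and 16.5 TPM in replicate 2, and Tle3 had 12.6 and 8.31 TPM. Both encode Groucho-type corepressors that hold Tcf targets off. Bcl9, which links beta-catenin to the transcription machinery, had 24.5 TPM in replicate 1 and 67.6 TPM in replicate 2. The ranges of Tcf7l2, Bcl9, Tle1 and Lef1 overlapped as neighbours, and Tle3, Tcf7l1 and Tcf7 lay below them in that order without overlap.

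The libraries also differed in the form of Lef1 to which the authors' tables assigned its TPM, which is a model estimate. In replicate 1, 100% of its TPM was assigned to Lef1-203 (2298 bases, 993 coding bases). In replicate 2, 46.5% was assigned to Lef1-203 and 53.5% to Lef1-204 (3357 bases, 1152 coding bases). Lef1-203 starts in a 24-base exon of its own, 6 bases from a RefSeq start site, and so lacks the first coding exon of Lef1-204, which begins 2326 bases upstream and encodes the amino terminus with which Lef1 binds beta-catenin. The RefSeq window of 250 bases before and 50 after that start site, chr3:131112541-131112840 (GRCm38.p6, plus strand), is shown with the first exon of Lef1-203 in capitals. The 207 coding bases that Lef1-203 lacks, chr3:131111472-131111678, follow with the start codon in capitals.
Lef1 internal start: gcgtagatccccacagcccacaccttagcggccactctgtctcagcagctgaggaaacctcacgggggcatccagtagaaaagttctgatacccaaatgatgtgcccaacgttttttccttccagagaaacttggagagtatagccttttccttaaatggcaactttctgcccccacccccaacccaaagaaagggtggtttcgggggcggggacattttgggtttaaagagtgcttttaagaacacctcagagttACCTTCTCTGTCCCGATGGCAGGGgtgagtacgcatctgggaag
Lef1-204 first coding bases: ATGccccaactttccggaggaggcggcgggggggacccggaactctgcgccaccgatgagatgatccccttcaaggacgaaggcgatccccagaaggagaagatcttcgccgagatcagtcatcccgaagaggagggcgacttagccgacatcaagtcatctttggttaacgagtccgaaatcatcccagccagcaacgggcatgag

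Lef1-203 and Lef1-204 also differ at 2 further places in the coding sequence. Near the 3′ end, Lef1-203 has a 41-base exon, chr3:131204933-131204973, that Lef1-204 lacks, and its coding sequence stops after 32 bases of it, while that of Lef1-204 runs on into the last exon for 77 bases. Upstream, Lef1-203 alone of the pair holds an 84-base coding exon, chr3:131191023-131191106. This exon is shown in capitals with 15 bases of the neighbouring exons on each side, above the same place in Lef1-204, where the capitals are the bases on each side of the junction.
Lef1-203: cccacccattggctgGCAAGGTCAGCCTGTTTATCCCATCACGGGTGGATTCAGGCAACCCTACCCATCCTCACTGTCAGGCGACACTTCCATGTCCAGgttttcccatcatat
Lef1-204: cccacccattggctGGttttcccatcatat

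Tcf7l2 has a comparable short form. Tcf7l2-203 starts inside the gene, codes for 897 bases against 1377 in Tcf7l2-202, and lacks the first coding exons. It took 15.1% of the TPM of Tcf7l2 in replicate 1 and 0.23% in replicate 2. Tcf7l2-202 took 3.17% and 26.2%. Tcf7l2-218, a partial transcript of 729 bases that also starts inside the gene, took 0% and 19.5%, so transcripts without the first coding exons were assigned TPM in both libraries. No transcript of Tcf7l2 exceeded 28.4% in either library, over 22 annotated transcripts. The core motif of Tcf and Lef factors, CTTTGA or TCAAAG on the given strand, was found in a RefSeq start-site window of 5 of the 29 members that have one (17.2%), against 18.2% of all genes with a window. The 5 were Lef1, Fzd1, Gsk3a, Gsk3b and Dkk1, and the internal Lef1 window above did not hold it.

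Of the 22 members at 5 TPM or more in both libraries, 16 have 2 or more annotated transcripts, and 8 of these (50%) had a different leading transcript in each library, against 34.4% of 4352 genes of that kind. The 8 were Lrp6, Apc, Dvl3, Tcf7l2, Lef1, Tle1, Tle3 and Bcl9, and they include all 5 nuclear effectors counted. The 34.4% was not matched for the number of annotated transcripts, which ran from 6 (Lef1) to 22 (Tcf7l2) over these 5 effectors. The 8 with the same leading transcript were Wnt7b, Fzd3, Ctnnb1, Gsk3b, Csnk1a1, Dvl1, Sfrp2 and Rspo1. Ctnnb1-214 led in both libraries with 54.7% and 69.8%, followed by Ctnnb1-201 with 37.7% and 29.8%, and both transcripts have 2343 coding bases. Csnk1a1-204 held 71.1% and 70.1%.

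Transcripts annotated as not coding took much of the TPM of several members. Dvl1 was assigned to the retained-intron transcript Dvl1-203 by 100% in both libraries. Such transcripts took 74.5% of the TPM of Bcl9 in replicate 1 and 86.2% in replicate 2, and 52.4% and 70.2% of that of Tle1. For Apc the share was 72.0% and 28.1%, most of it on transcripts annotated for nonsense-mediated decay. These shares are the authors' model estimates and not counts of reads across junctions.

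**Figure D3:**
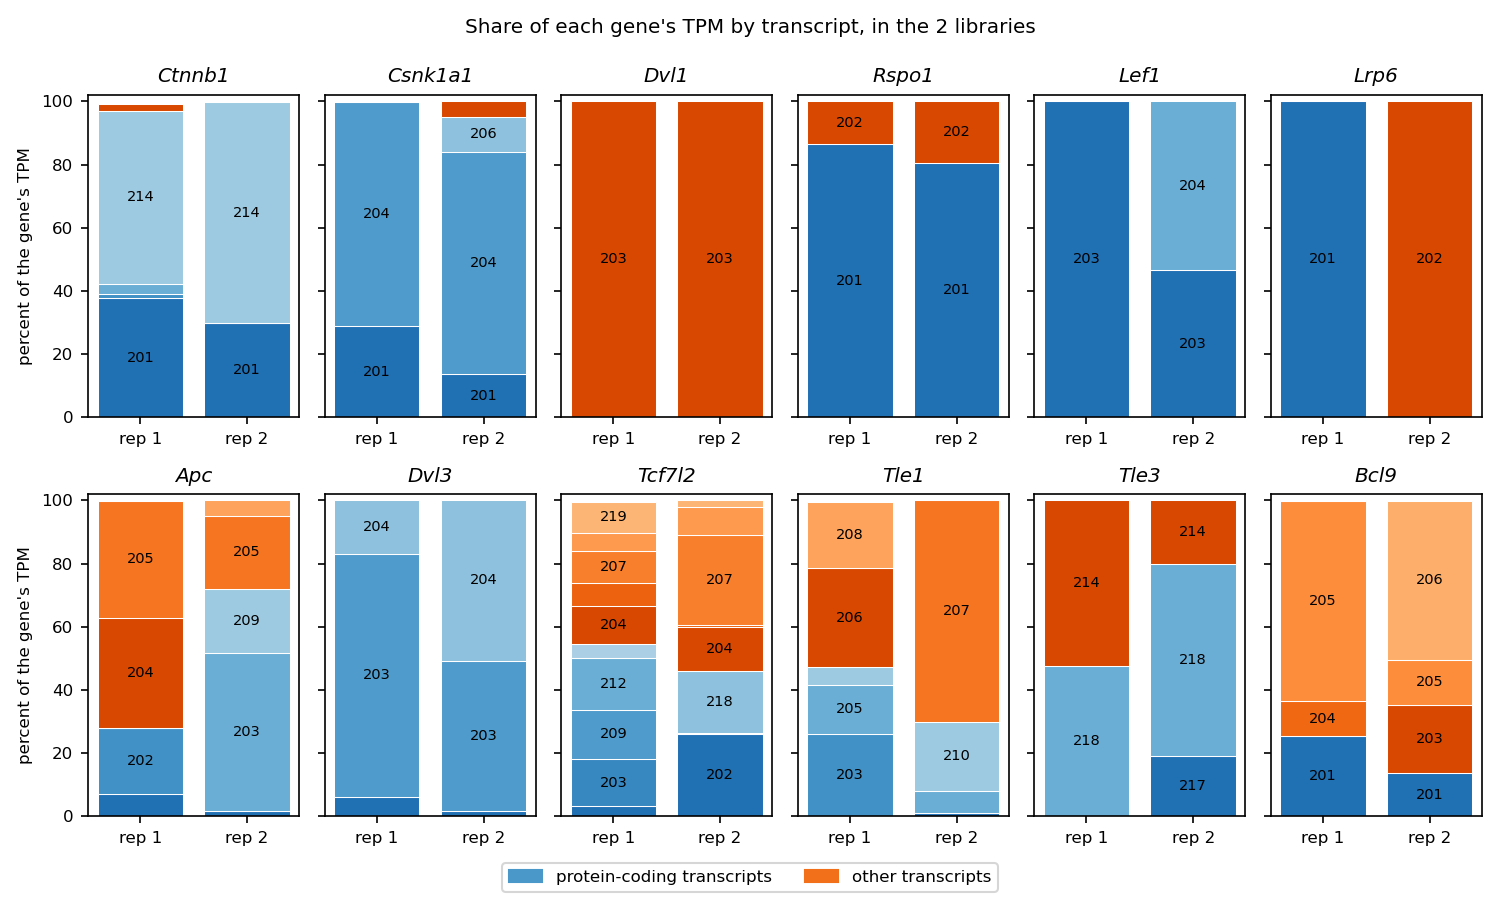
Percent of a gene's TPM assigned to each transcript in the authors' tables, replicate 1 left of replicate 2, for 12 members at 5 TPM or more in both libraries; numbers are transcript suffixes and shares under 1% in both libraries are left out. Ctnnb1, Csnk1a1, Dvl1 and Rspo1 keep their leading transcript, and the other 8 genes do not.

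Over the 4 secreted inhibitors, mean TPM ran from 0 (Dkk1) to 72.6 (Sfrp1), and the median of 32.8 fell between Dkk3 and Sfrp2. Sfrp1, which binds Wnt proteins outside the cell and is made by cortical progenitors, had 89.95 TPM in replicate 1 and 55.2 TPM in replicate 2. Sfrp2, its paralogue, had 20.4 and 82.6 TPM, so that the higher of the pair was Sfrp1 in replicate 1 and Sfrp2 in replicate 2. Their sum with the other inhibitors was 127 TPM in replicate 1 and 149 TPM in replicate 2. Gm26771, an annotated antisense gene over Sfrp2, had 419 counts in replicate 1 and 0 in replicate 2, and without strand these may not be separable from Sfrp2.

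Dkk3, a divergent Dickkopf protein, had 17.1 TPM in replicate 1 and 11 TPM in replicate 2, and Dkk1, the Dickkopf that blocks Lrp6, had 0 counts in both. Rspo1, which raises Wnt receptor levels at the cell surface, was among the even genes with 28.7 and 23.6 TPM (26.2 ± 3.61, SD, n = 2). Rspo2 had 42 counts in replicate 1 and 0 in replicate 2, which in CPM was at least 14.3-fold higher in replicate 1 but under 1 TPM. Wls, which carries Wnt proteins to the cell surface, had 87.3 TPM in replicate 1 and 52.9 TPM in replicate 2, while Porcn, the enzyme that attaches their lipid, had 0 counts in both.

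Of the 22 members that averaged 10 TPM or more, 11 (50%) lay at least 2-fold apart in the libraries, against 51.3% of 7680 genes at that level, so the share of the members is near that of all genes. Of these, 5 were higher in replicate 1 (Fzd3, Fzd8, Dvl3, Tcf7l2 and Tle1), against 24.7% of all genes, and 6 were higher in replicate 2 (Wnt8b, Fzd2, Lrp6, Lef1, Bcl9 and Sfrp2), against 26.6%. The median absolute log2 difference was 0.97 over the 22 members and 1.04 over all genes at that level. By role, 1 of 6 relay genes differed 2-fold (Dvl3), against 4 of 5 nuclear effectors and 4 of 5 receptors and co-receptors. The roles were not matched for level. All 5 receptors and co-receptors averaged 10 to 30 TPM, where 69.4% of all genes differed 2-fold. Ctnnb1 and Csnk1a1 of the relay averaged over 100 TPM, where 19.5% did. Left out under 10 TPM, the relay genes Axin1, Axin2, Gsk3a and Dvl2 had log2 differences of -3.16, 1.91, 1.66 and 1.24. In CPM with TMM factors, where Lrp6 is not 2-fold apart and is higher in replicate 1, 10 of the 22 members differed 2-fold, against 51.1% of all genes. On that scale 5 were higher in replicate 2, against 25.8%, and 3 of 5 receptors and co-receptors differed 2-fold.

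Agreement varied with level. From a mean TPM of 1 to 10, 7 of 8 members differed at least 2-fold, against 79.5% of all genes there. From 10 to 30 TPM it was 5 of 10 members against 69.4% of genes, and from 30 to 100 TPM 5 of 9 members against 48.6%. At 100 TPM or more it was 1 of 3 members (Tcf7l2) against 19.5%. Of 30 members that averaged 1 TPM or more, 2 (Fzd8 and Axin1) had under 1% of their depth-scaled counts in one library, which is 6.67%, against 29.8% of 11107 genes.

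**Figure D4:**
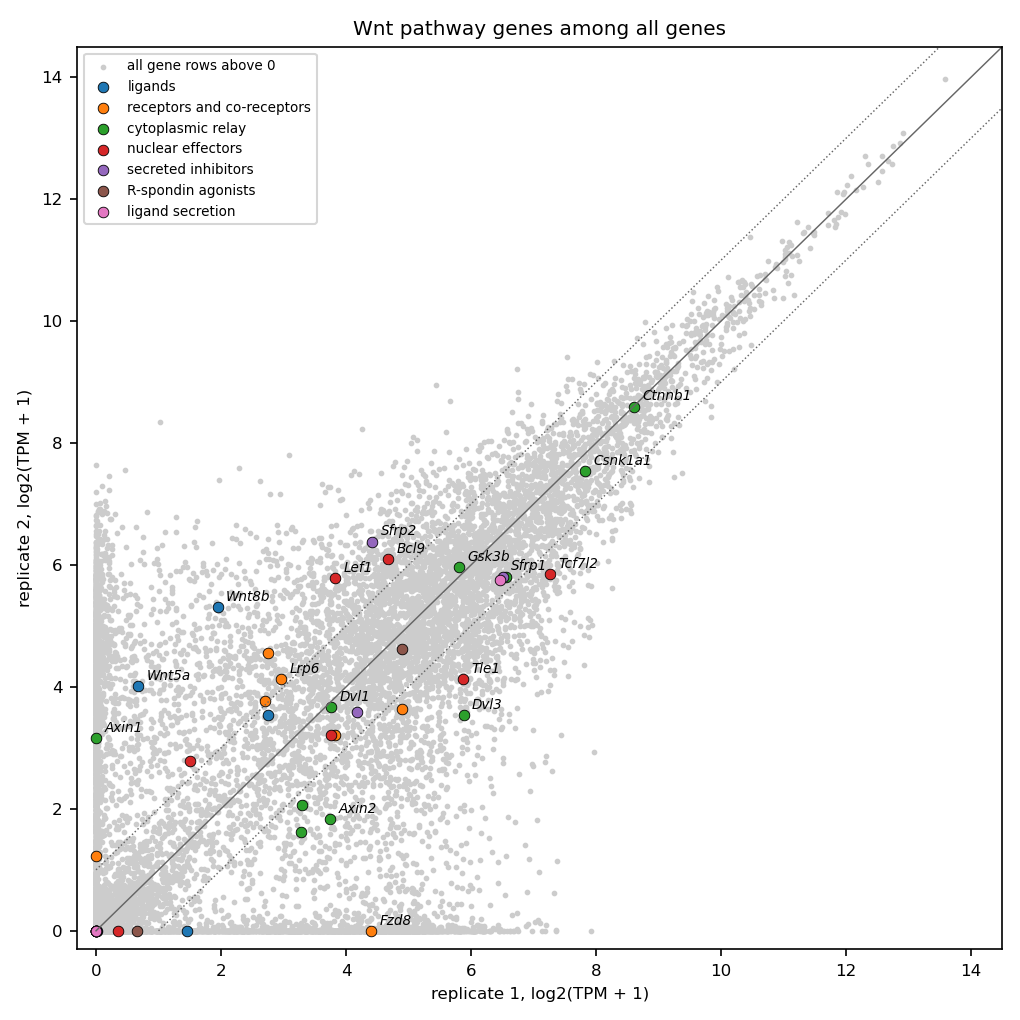
log2(TPM + 1) in replicate 1 (x axis) and replicate 2 (y axis) for all gene rows above 0 in a library (grey) and for the 43 Wnt pathway genes (coloured by role); the solid line marks equality and the dotted lines a difference of 1. Ctnnb1 lies on the line, 11 members that averaged 10 TPM or more lie on or beyond the dotted lines, and Fzd8 and Axin1 lie on the axes.

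Beyond the 43, 72 other genes of the pathway were read in matching roles. Of these, 25 (34.7%) were detected in both libraries, against 30.4% of protein-coding genes, so their share is near that of all such genes, and 14 were detected in one and 33 in neither. The ligands were again the least represented. Of 11 other Wnt genes none was detected in both libraries, and 9 had 0 counts in both. The other 2, named after their values were seen, were Wnt3 with 16.2 TPM in replicate 1 and 0 in replicate 2, and Wnt9a with 5.84 and 0 TPM.

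Of the lists in matching roles, the nuclear and relay ones had the largest shares detected in both libraries, where 30.4% of protein-coding genes were. The relay share was lower than the 9 of 10 of the members. Of 17 other relay genes 9 were detected in both libraries, among them the casein kinases Csnk1e (129 TPM in replicate 1 and 20.02 TPM in replicate 2) and Csnk1d (33.9 and 36.3 TPM) and Btrc, the ubiquitin ligase subunit that takes up marked beta-catenin (16.2 and 39.2 TPM). Of 14 other nuclear genes 11 were detected in both, led by the repressor Hbp1 (101 and 122 TPM), the short Groucho protein Aes (55.7 and 13.99 TPM) and the corepressor Ctbp1 (17.5 and 47.4 TPM). Of 9 other receptors 2 were detected in both.

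Of 16 other secreted or membrane inhibitors 2 were detected in both, namely the membrane inhibitor Apcdd1 (18.9 TPM in replicate 1 and 29.8 TPM in replicate 2) and Znrf3, which removes Frizzled receptors (12.2 and 16.8 TPM). Frzb, named after its values were seen, had 0 counts in replicate 1 and 46.1 TPM in replicate 2. Rspo3, an R-spondin of the cortical hem, had 75.8 and 69.7 TPM and was higher than Rspo1 in both. Its receptors Lgr4 and Lgr5, named after their values were seen, had 2.92 and 0 TPM, and 0.02 and 0.19 TPM.

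Of 17 common target genes, 4 of them members already described, 9 were detected in both libraries, 2 in one and 6 in neither. Over all protein-coding genes 30.4% were detected in both. The highest were Ccnd1, a cyclin that drives the cell cycle (249 TPM in replicate 1 and 118 TPM in replicate 2), Id2, an inhibitor of differentiation (133 and 85.8 TPM), and Msx1 (50.5 and 55.1 TPM). These genes have other inputs besides Wnt, so their levels do not measure the activity of the pathway. At gene level, Axin2 was lower and Lef1 higher in replicate 2, so even these targets among the members did not share a direction. Most of the Axin2 TPM lay on the non-coding Axin2-203, and each coding transcript of Axin2 was under 1 TPM in both libraries. Lower coding RNA of Axin2 in replicate 2 is therefore not shown.

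**Figure D5:**
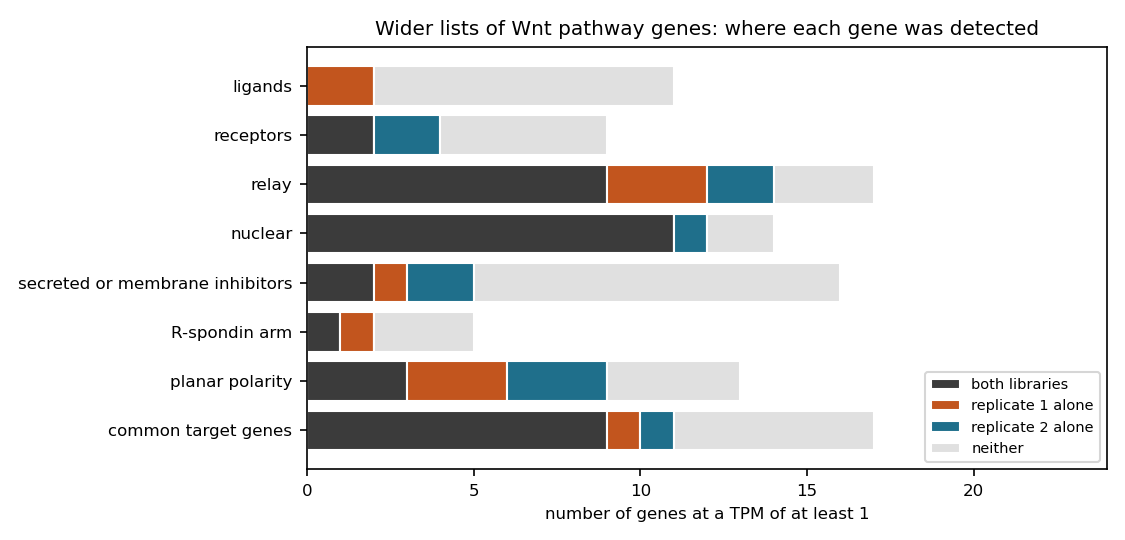
Number of genes in each wider list at 1 TPM or more in both libraries, in replicate 1 alone, in replicate 2 alone or in neither; 4 genes of the target list are also members. The nuclear list has the largest dark bar relative to its length, with 11 of 14, and the ligand list has none, with 0 of 11.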

How the data were processed

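For each library the authors provided gene and transcript tables, which per the file headers hold expected counts, TPM and FPKM, each level also as a posterior mean, and the percent of a gene's TPM on each transcript. Limits of posterior intervals in the deposited tables are a score here. The assembly is mm10 with annotation release M4, per text among the deposited files. Aligner, quantifier and strand use were not given in the sources used here. Deposited TPM covers all rows, spike-ins included, which took 4.35% of counts in replicate 1 and 3.35% in replicate 2. Spike-ins and 26248 rows with a bare number as ID, which held 23 and 26 counts, were left out of library sizes. Symbols, coordinates (1-based) and transcript names came from GENCODE M21, on the same assembly, and sequences from its transcripts and from RefSeq windows.

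There was 1 group of 2 libraries, so no test was possible. Differences are of log2(TPM + 1), which understates low genes. A gene was called 2-fold apart when it averaged 10 TPM or more and differed by 1 or more in either direction. CPM used gene-row totals. TMM factors (edgeR 4.0.16) and size factors (DESeq2 1.42.0), from counts rounded to whole numbers, served as alternatives. The counting rules were tested on simulated data that held counting error and changes of set size, but no error from amplification. That test checks the rules and not how far the calls in these libraries hold. The members, roles and lists were chosen with earlier results of these data known. From each wider list, the text names up to 3 genes of highest mean TPM among those at 10 or more and detected in both libraries; others are marked as named after their values were seen. Work used Python 3.11.15 and pandas.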

Additional observations from a re-analysis of the deposited data

How the results depend on the processing

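No paired analysis was possible because there is 1 group. The number of members detected in both libraries was 22 to 28 under the 5 alternatives that keep both, and 29 to 30 when either library was left out. The count of members differing 2-fold was 18 of 30 at a mean TPM of at least 1 (60.0% of all genes) and 20 of 43 without a filter (16.1% of all genes, most of them averaging under 1 TPM), against 11 of 22, and 10 to 11 under the other 7. The count of members read in one library alone was 1 of 22 at a mean TPM of at least 10 (18.1% of all genes) and 6 of 34 at 10 counts or more (32.0% of all genes), against 2 of 30. The same leading transcript was found for 5 of 8 at a gene TPM of at least 20, against 8 of 16. Rescaling TPM without spike-ins raised every role alike, and for the receptors, whose 2 sums lay closest for their size, the move to a mean summed TPM of 82.7, against 76.5, exceeded their SD. Lrp6 changed direction in CPM with TMM factors (a log2 difference of 0.56, against -1.17 in TPM), as its transcript lengths differ; no other member counted as 2-fold did. With 2 amplified libraries, neither a member's own spread nor a member's absence can be established at this depth.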

Other observations

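Planar cell polarity genes, which orient cells within an epithelium and are the other main branch of Frizzled signalling, were unevenly read. Of 13 listed, 3 were detected in both libraries, 6 in one and 4 in neither. Over all protein-coding genes 30.4% were detected in both, so the count is not read as a trait of this branch. Vangl2, the core membrane component, had 11.96 TPM in replicate 1 and 70.8 TPM in replicate 2. Celsr2, a cadherin of the same complex, had 32.5 and 23.4 TPM. Named after their values were seen, Celsr3 had 3.44 and 3.18 TPM, Scrib had 1 count in replicate 1 and 2008 counts in replicate 2, and Prickle1 had 974 counts and 0.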
